A study of Homo sapiens with 9 samples.

Results

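The 46 genes described here carry glucose into the cell, convert it to pyruvate and lactate, store it as glycogen, or belong to the hypoxia-inducible factor (HIF) pathway and its best-known targets, together with HKDC1 (hexokinase domain containing 1). They were taken by gene symbol from RNA sequencing of cells labelled Huh7, a human hepatocellular carcinoma cell line. Each library lists 32906 genes. All 46 symbols were found, in 47 rows, since ALDOA is listed under a pair of identifiers. The study transfected Huh7 cells with a scrambled control siRNA (Scramble) or with either of a pair of siRNAs against KDM4C, a histone lysine demethylase (Si-KDM4C#1 and Si-KDM4C#2), and collected RNA 48 h later. Each group has 3 libraries. All groups were grown in the same medium in 5% CO2, and no label gives a low-oxygen, low-glucose or drug treatment. Values are FPKM (fragments scaled by exon length and library size), a scale on which levels of different genes can be set side by side.

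As background, glycolysis splits glucose into pyruvate in the cytosol. Lactate dehydrogenase then turns pyruvate into lactate, or the pyruvate dehydrogenase complex passes it to the mitochondria, and the PDK kinases switch that complex off. HIF is a transcription factor made of an oxygen-labile alpha subunit (HIF1A or EPAS1) and a stable partner. The EGLN prolyl hydroxylases and the VHL ubiquitin ligase subunit destroy the alpha subunits when oxygen is present. Most glycolytic genes, along with BNIP3, CA9, VEGFA, EGLN3 and KDM3A, are textbook HIF targets. The normal liver uses the liver pyruvate kinase PKLR, whereas liver tumours usually switch to PKM and also express HK2.

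KDM4C, the targeted gene, was measured at 4.88, 4.63 and 4.57 FPKM in the Scramble libraries, at 1.18, 1.10 and 1.13 after Si-KDM4C#1 and at 0.256, 0.349 and 0.256 after Si-KDM4C#2. Its means were thus 24.3% and 6.11% of the Scramble mean. Its close paralog KDM4B stood at 91.9% of the Scramble mean after Si-KDM4C#1 (adjusted p = 0.24) but at 18.7% after Si-KDM4C#2 (adjusted p = 1.43e-07). The depth recovered from the values ran from 14597503 to 18058557 fragments per library. Libraries of the same group correlated at 0.983 to 0.988 across genes and libraries of different groups at 0.921 to 0.947, and no library stood apart from its group. The labelled cell type was checked against hepatocyte markers, of which 9 of 12 are listed. All 9 were under 1 FPKM in every library (highest 0.248 FPKM), so they do not bear out the label. Of 4 listed epithelial markers, the keratins KRT8 and KRT18 were at least 1 FPKM in every library, and 2 were under 1 FPKM throughout. Of 6 fibroblast markers, the collagen genes COL1A1 and COL3A1 and the proteoglycan gene LUM were at least 1 FPKM in every library. Another 2 of the 6 were under 1 FPKM in every library. The summed fibroblast markers ran from 49.4 to 52.9 FPKM in Scramble, 56.0 to 59.1 after Si-KDM4C#1 and 79.6 to 80.7 after Si-KDM4C#2, though LUM alone was at 51.4% and 88.2% of its Scramble mean. The summed epithelial markers ran from 330 to 353 FPKM in Scramble, 289.7 to 309 after Si-KDM4C#1 and 240.1 to 254 after Si-KDM4C#2. The part of these markers in the results below was not tested. PKLR, the pyruvate kinase of the normal liver, was also below 1 FPKM in every library. In such bulk samples, fewer cells of a type and less RNA per cell cannot be told apart.

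The question put to each siRNA was whether these genes changed against Scramble. The 14363 genes whose mean reached 1 FPKM in any group were tested with limma after taking log2(FPKM + 1), and a gene was called at a false discovery rate (FDR) under 0.05. All 47 rows passed the filter, HKDC1 through the Scramble libraries alone. Both siRNA comparisons use the same Scramble libraries, so they are not independent of each other. Libraries of a group are not stated to come from separate cultures, and p-values therefore measure the spread between these libraries, which may be technical.

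Most of the glycolysis and hypoxia rows fell with each siRNA, counted separately. The members were chosen with earlier results of these data known, so the shares below describe the list and are no test of it. With Si-KDM4C#1, 30 of the 47 rows fell (63.8%), 10 rose (21.3%) and 7 were not called. Over all tested genes 33.9% fell and 31.7% rose in that comparison. With Si-KDM4C#2, 36 of 47 fell (76.6%), 6 rose (12.8%) and 5 were not called, beside 25.0% lower and 34.4% higher over all tested genes. The median log2 fold change of the 47 rows was -0.23 after Si-KDM4C#1 and -0.49 after Si-KDM4C#2, against -0.03 and 0.06 over all genes. Past a 2-fold change as well as FDR < 0.05, the limits used in the study, 3 rows fell and 1 rose after Si-KDM4C#1 (4.83% and 4.04% of all tested genes), and 9 fell and 0 rose after Si-KDM4C#2 (2.30% and 2.60%). With Si-KDM4C#1, the 2-fold count is thus near that of genes at large. The members are abundant, with a median level of 28.6 FPKM against 5.67 FPKM over all tested genes, and the part of abundance in the share of calls was not tested. A correction for the GC content of each gene left 2 members higher after Si-KDM4C#2 in place of 6, PFKL and VHL.

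**Figure D1:**
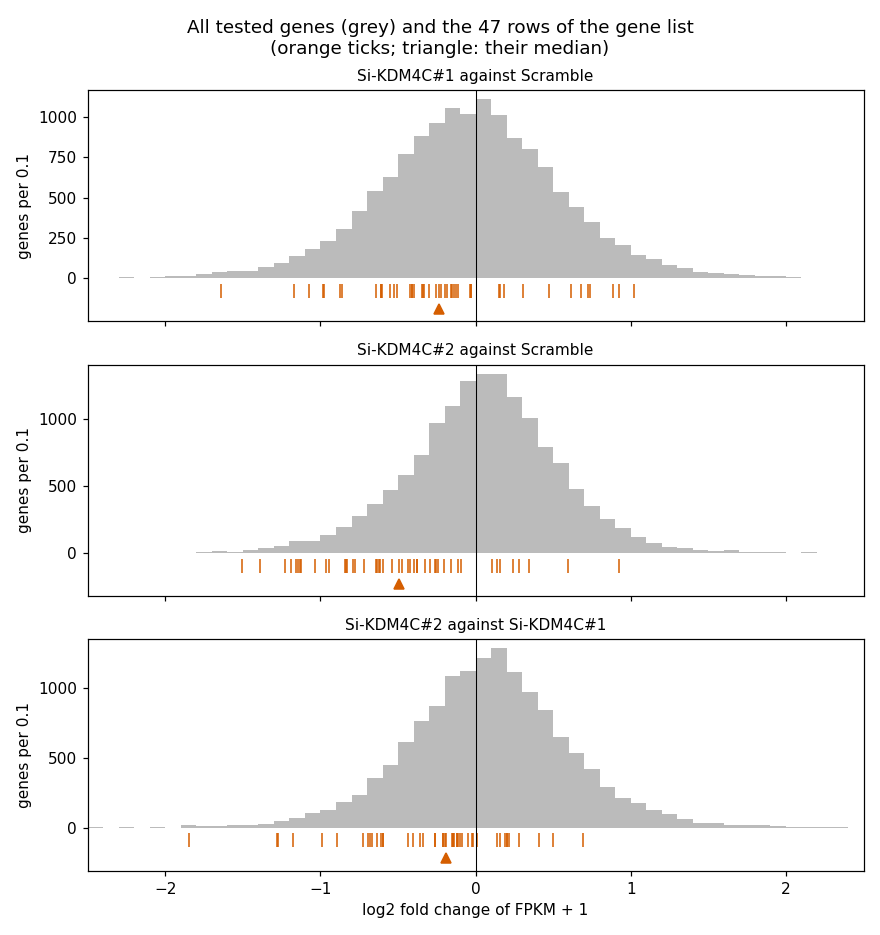
Distribution of log2 fold changes (x axis, FPKM + 1) of the 14363 tested genes (grey bars, genes per bin of 0.1) in each comparison, with the 47 rows as orange ticks and their median as a triangle. The medians of the 47 rows lie at -0.23, -0.49 and -0.19, left of the medians of all genes.

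**Figure D2:**
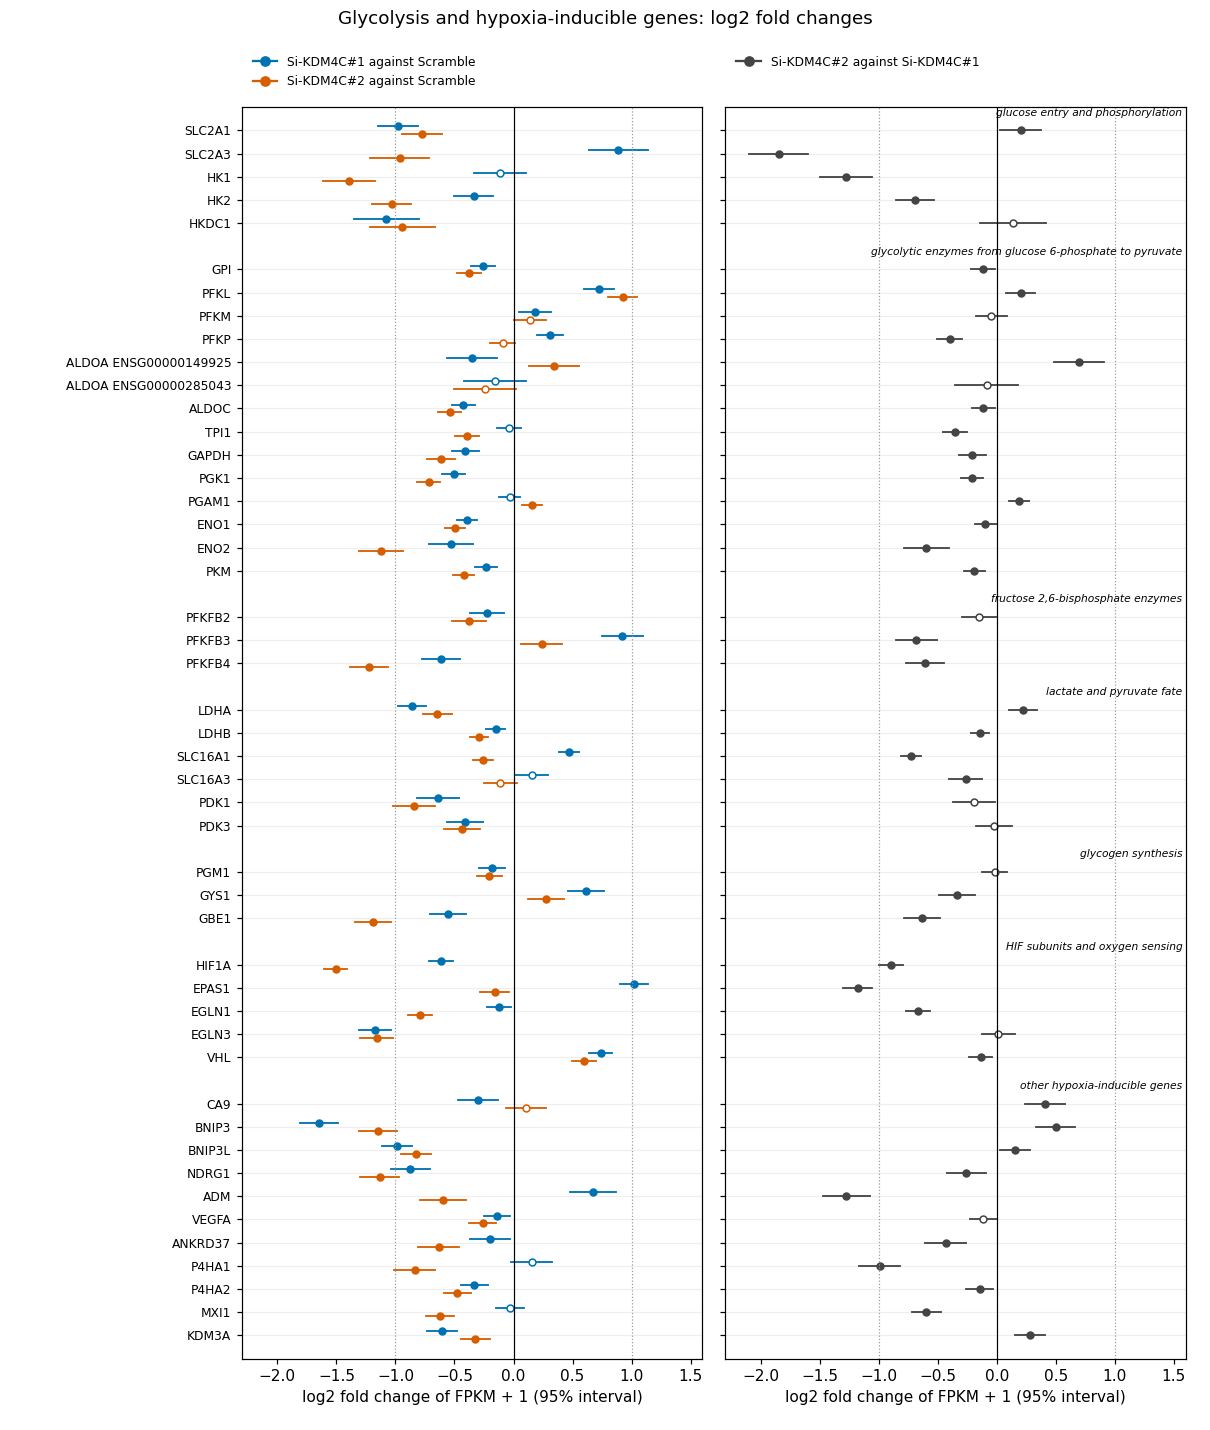
Log2 fold change of FPKM + 1 (x axis) with its 95% interval for every row, grouped by role, for each siRNA against Scramble (left) and between the siRNAs (right). Filled points passed FDR < 0.05, open points did not, and dotted lines mark 2-fold; BNIP3, EGLN3 and HKDC1 lie left of the 2-fold line after Si-KDM4C#1, HIF1A and HK1 farthest left after Si-KDM4C#2.

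At the entry of glucose, 3 of 5 genes fell after Si-KDM4C#1 and 5 of 5 after Si-KDM4C#2, HKDC1 among them each time. Over all tested genes 33.9% and 25.0% fell, and among 5 genes a share moves a long way with 1 gene. SLC2A1, which encodes the widespread glucose transporter GLUT1, was at 57.4, 50.8 and 63.1 FPKM in Scramble, 28.6, 29.97 and 26.8 after Si-KDM4C#1 and 33.4, 31 and 34.1 after Si-KDM4C#2. The highest knockdown library stayed under the lowest Scramble library, and the log2 fold changes were -0.98 ± 0.076 (SE, adjusted p = 2.71e-06) and -0.78 ± 0.076 (adjusted p = 1.98e-05). SLC2A3, the GLUT3 transporter, moved in opposite directions. It was at 9.95, 8.94 and 11.4 FPKM in Scramble, 19.5, 19.4 and 19.5 after Si-KDM4C#1 and 3.73, 5.13 and 5.29 after Si-KDM4C#2, and no group overlapped another. The log2 fold change was 0.89 (adjusted p = 7.18e-05) with the former siRNA and -0.96 (adjusted p = 5.76e-05) with the latter. GLUT3 mRNA therefore made up 40.6% ± 1.42 (SD, n = 3) of the summed SLC2A1 and SLC2A3 FPKM after Si-KDM4C#1, against 15.0% ± 0.276 in Scramble and 12.6% ± 2.21 after Si-KDM4C#2.

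Hexokinases trap glucose by phosphorylating it. HKDC1, a member of this family that also has hexokinase activity, was a rare transcript here, at 1.76, 1.98 and 1.51 FPKM in Scramble, 0.377, 0.290 and 0.234 after Si-KDM4C#1 and 0.333, 0.573 and 0.385 after Si-KDM4C#2. HKDC1 passed the filter through the Scramble libraries alone. The study had also picked it from these same libraries, and reported lower HKDC1 mRNA by PCR in Huh7 and HepG2 cells. Its fall here is therefore no independent support. The knockdown libraries did not overlap the Scramble libraries, and the means were 17.2% and 24.6% of the Scramble mean. Behind these values stood 357, 63 and 88 fragments summed over the 3 libraries of Scramble, Si-KDM4C#1 and Si-KDM4C#2. The log2 fold changes were -1.08 ± 0.123 (adjusted p = 3.76e-05) and -0.94 ± 0.123 (adjusted p = 0.000131). The added 1 FPKM shrinks the change of so rare a gene: with a pseudocount of 0.1 the values were -2.22 and -1.82, and HKDC1 was then past 2-fold with both siRNAs. The study lists a PCR primer pair for HKDC1, shown here because it locates the measured transcript; the product of 182 bases lies in the coding sequence of transcript HKDC1-201 (GENCODE release 29), and no transcript of another gene in that annotation holds either primer. The forward primer lies in exon 7 at chr10:69243185-69243204 (GRCh38, plus strand), and the reverse primer, printed as ordered, reads the other strand. Only its first base lies in exon 8 (chr10:69246079), and the rest lies in exon 7 (chr10:69243346-69243365).
HKDC1 forward: ctggcaccaatgcgtgttac
HKDC1 reverse: cagttgctttcctgggttgag

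HK1, the housekeeping hexokinase, lies 2424 bases downstream of HKDC1 on the same strand of chromosome 10. It was at 31.9, 31.5 and 31.3 FPKM in Scramble, 30.7, 28 and 28.7 after Si-KDM4C#1 and 9.56, 13.6 and 11.4 after Si-KDM4C#2. With Si-KDM4C#2 it fell to 36.5% of the Scramble mean (log2 fold change -1.39 ± 0.097, adjusted p = 2.28e-06), whereas after Si-KDM4C#1 the change of -0.11 was not called (adjusted p = 0.335, 95% interval -0.33 to 0.11). HK2, the hexokinase typical of tumours, was at 34.5, 31.4 and 35.7 FPKM in Scramble, 28.6, 27.7 and 23.7 after Si-KDM4C#1 and 15.6, 16.6 and 15.9 after Si-KDM4C#2. It fell with both (-0.34, adjusted p = 0.0023, and -1.03, adjusted p = 2.25e-06), and its groups were ordered without overlap. Summed over HK1, HK2 and HKDC1, hexokinase mRNA was 67.2 ± 2.01 FPKM (SD, n = 3) in Scramble, 56.1 ± 3.50 after Si-KDM4C#1 and 28 ± 2.67 after Si-KDM4C#2, and HKDC1 was 2.61%, 0.531% and 1.52% of it.

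**Figure D3:**
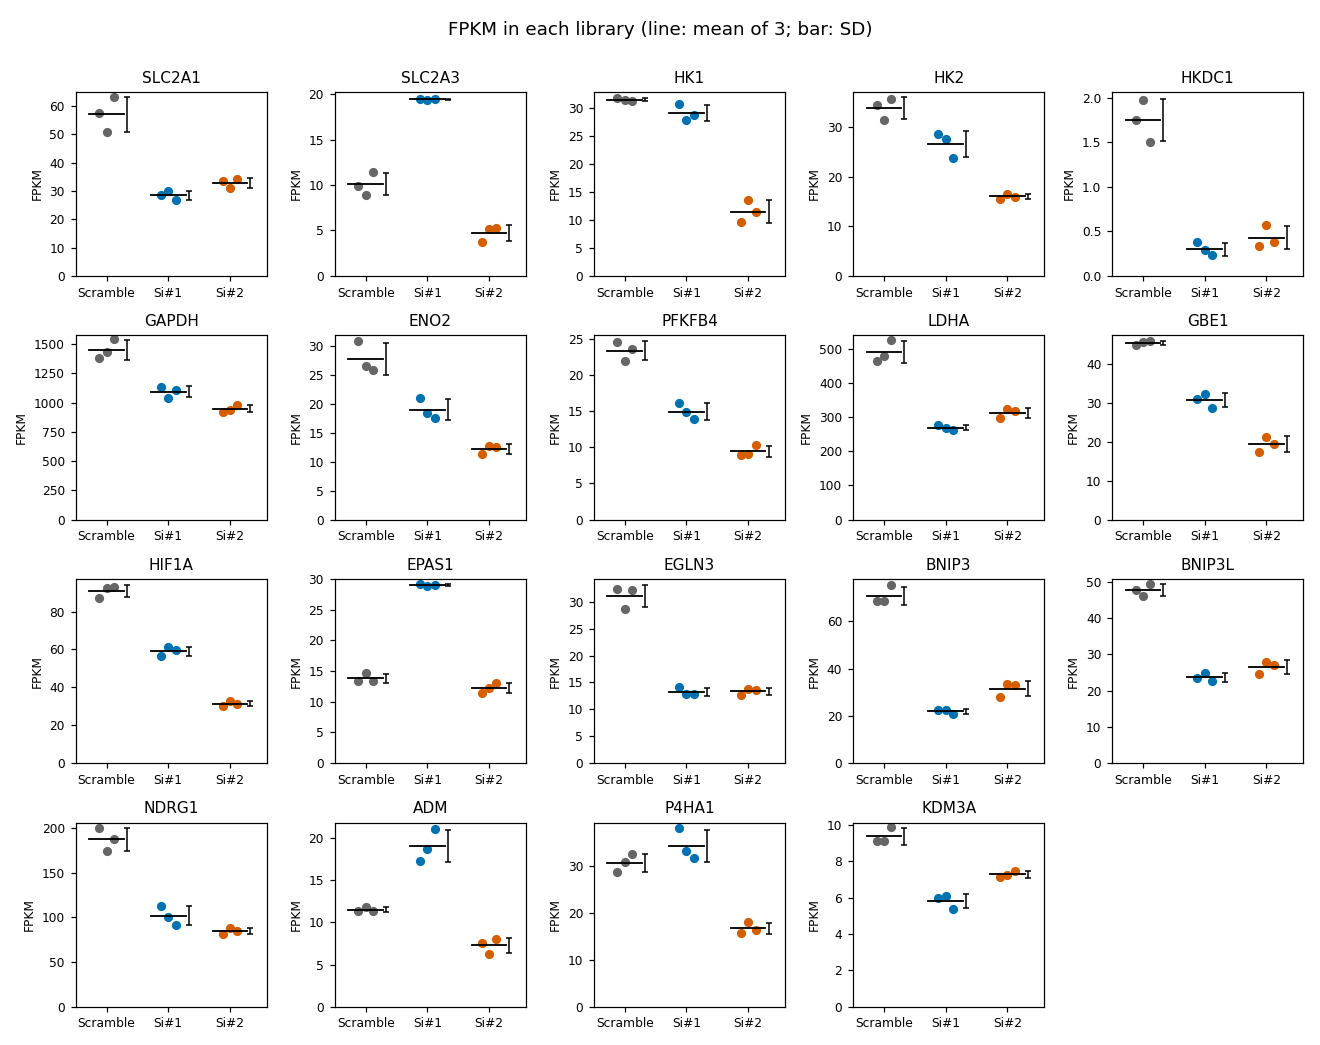
FPKM (y axis, from 0) of 19 members in each library, by group, with the mean as a line and the SD as a bar beside the points (n = 3). BNIP3, EGLN3, HKDC1, LDHA and SLC2A1 are low in all knockdown libraries, while EPAS1, ADM and SLC2A3 are highest in the Si-KDM4C#1 libraries.

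Of the 14 rows of glycolytic enzymes from glucose 6-phosphate to pyruvate, 8 fell and 3 rose with each siRNA. Over all tested genes, 33.9% fell and 31.7% rose after Si-KDM4C#1, and 25.0% fell and 34.4% rose after Si-KDM4C#2. GAPDH, the enzyme that makes the first NADH of the pathway and a customary reference transcript, ranked 18 by mean FPKM of all listed genes. It was at 1381, 1429 and 1543 FPKM in Scramble, 1133, 1037 and 1111 after Si-KDM4C#1 and 922, 937 and 980.2 after Si-KDM4C#2. The 3 groups did not overlap, and GAPDH fell to 75.4% (log2 fold change -0.41 ± 0.052, adjusted p = 8.27e-05) and 65.2% (-0.61 ± 0.052, adjusted p = 7.52e-06) of the Scramble mean. The study also lists GAPDH primers, shown because of this change: the pair spans 258 bases of the coding sequence of GAPDH-201, the forward primer crossing from exon 5 to exon 6 (from chr12:6537000-6537010 to chr12:6537101-6537109, GRCh38) and the reverse lying in exon 8 (chr12:6537613-6537632). Of transcripts of other genes, 0 held both primers, while 13 genes held 1 of them.
GAPDH forward: agaaggctggggctcatttg
GAPDH reverse: aggggccatccacagtcttc

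PGK1 and ENO1, farther down the pathway, also fell with both siRNAs. PGK1, which makes the first ATP, fell from 636 ± 21.6 FPKM (SD, n = 3) to 447 ± 9.02 and 386 ± 18.3, and ENO1, the main enolase, from 965 ± 33.7 to 733 ± 7.55 and 685 ± 23.8. Their log2 fold changes were -0.51 and -0.72 for PGK1 and -0.39 and -0.49 for ENO1, each with an adjusted p of at most 1.35e-05. ENO2, the second enolase, was at 30.8, 26.5 and 25.8 FPKM in Scramble, 20.9, 18.4 and 17.5 after Si-KDM4C#1 and 11.3, 12.7 and 12.5 after Si-KDM4C#2. It was the sole enzyme of this stretch past 2-fold, at -1.12 ± 0.083 (adjusted p = 3.19e-06) after Si-KDM4C#2, after -0.53 (adjusted p = 0.000343) after Si-KDM4C#1. GPI, ALDOC and PKM, the pyruvate kinase of tumours, fell by less with both siRNAs, with log2 fold changes between -0.23 and -0.54. TPI1 fell after Si-KDM4C#2 (-0.40, adjusted p = 5.38e-05) and was at -0.04 (adjusted p = 0.495) after Si-KDM4C#1. The latter value was called lower after quantile normalization (-0.14, adjusted p = 0.00817) and after GC correction (-0.19, adjusted p = 0.018).

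The phosphofructokinases, which commit glucose to glycolysis, did not follow. PFKL, the liver type, rose from 12.9 ± 1.1 FPKM to 21.9 ± 0.558 after Si-KDM4C#1 and 25.4 ± 0.211 after Si-KDM4C#2 (log2 fold changes 0.72, adjusted p = 2.33e-06, and 0.93, adjusted p = 8.63e-07). PFKP, the platelet type and the most abundant, rose after Si-KDM4C#1 (0.31, adjusted p = 0.000314) and was at -0.09 (adjusted p = 0.121) after Si-KDM4C#2. PFKM, the muscle type, had 0.18 (adjusted p = 0.0214, libraries overlapping) and 0.14 (adjusted p = 0.0725). After quantile normalization the rise of PFKP was 0.12 (adjusted p = 0.0654) and that of PFKM 0.01 (adjusted p = 0.837), and PFKP after Si-KDM4C#2 was at -0.23 (adjusted p = 0.00335). The PFKM call was also lost without Scramble replicate 2 or 3 or Si-KDM4C#1 replicate 1 or 2 (adjusted p from 0.0641 to 0.0763). Phosphofructokinase mRNA summed to 109 ± 5.99 FPKM in Scramble, 139 ± 5.33 after Si-KDM4C#1 and 119 ± 0.725 after Si-KDM4C#2. PGAM1, which follows PGK1, was likewise higher after Si-KDM4C#2 (0.16, adjusted p = 0.00605, but 0.04 and adjusted p = 0.448 after GC correction, and 0.09 and adjusted p = 0.0627 with limma voom on recovered fragments) and at -0.03 after Si-KDM4C#1 (adjusted p = 0.487).

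ALDOA cannot be read with the same trust. Its rows had means of 4.01 and 1.78 FPKM in Scramble, low beside the 72 FPKM of ALDOC, and 53.5% and 49.2% of their exon bases are shared with each other or with an overlapping gene in GENCODE 29. The ENSG00000149925 row fell after Si-KDM4C#1 (-0.35, adjusted p = 0.00873) and rose after Si-KDM4C#2 (0.34, adjusted p = 0.0107, but 0.20 and adjusted p = 0.0916 after GC correction), while the ENSG00000285043 row was called in neither. After GC correction the ENSG00000285043 row was called lower with both (-0.40, adjusted p = 0.00753, and -0.54, adjusted p = 0.00169). With limma voom it was called lower after Si-KDM4C#2 (-0.44, adjusted p = 0.0444). Other members that share at least 10% of their exon bases with another gene are ALDOC, GAPDH, LDHB (33.4%), ANKRD37 (35.2%) and CA9 (38.5%). The library kit is not stated to keep the strand, so reads of ALDOC, GAPDH, ANKRD37 and CA9 and of a partner on the other strand cannot be told apart. The partner of LDHB lies on the same strand, as the ALDOA rows do with each other, so strand would not separate those reads. Reads of pseudogenes are a further uncertainty for GAPDH, of which 62 pseudogenes are annotated and 27 listed, with a summed mean of 35.6 FPKM, and for BNIP3, TPI1 and LDHA with 4.93, 11.1 and 7.22 FPKM.

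The PFKFB enzymes set the level of fructose 2,6-bisphosphate, the strongest activator of phosphofructokinase. PFKFB4 was at 24.7, 22 and 23.6 FPKM in Scramble, 16.2, 14.9 and 13.9 after Si-KDM4C#1 and 8.95, 9.04 and 10.4 after Si-KDM4C#2, 3 levels without overlap. It fell by 0.61 (adjusted p = 4.28e-05) and by 1.23 ± 0.071 (adjusted p = 7.53e-07) on the log2 scale. PFKFB3 went the other way, from 5.54 ± 0.762 FPKM to 11.3 ± 0.414 after Si-KDM4C#1 (0.92, adjusted p = 4.28e-06) and 6.68 ± 0.226 after Si-KDM4C#2 (0.24, adjusted p = 0.0231). The latter call was lost with GC correction (0.08, adjusted p = 0.351), with no filter (adjusted p = 0.0578), and without Scramble replicate 2 or 3 or Si-KDM4C#2 replicate 2 or 3 (adjusted p from 0.0615 to 0.078). PFKFB2 fell modestly with both (-0.23 and -0.38), the former value being -0.08 (adjusted p = 0.266) after GC correction. PFKFB4 therefore went from 62.0% ± 1.87 of the summed PFKFB FPKM in Scramble to 44.4% ± 2.23 and 41.6% ± 1.09, and PFKFB3 from 14.6% ± 1.31 to 33.6% ± 1.86 and 29.5% ± 1.5.

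At the fork between lactate and the mitochondria, 4 of 6 genes fell after Si-KDM4C#1 and 5 of 6 after Si-KDM4C#2. The shares over all tested genes were 33.9% and 25.0%. LDHA, which reduces pyruvate to lactate, was at 466, 481 and 528 FPKM in Scramble, 277, 269 and 263 after Si-KDM4C#1 and 298, 326 and 318 after Si-KDM4C#2. The knockdown libraries were all below Scramble, and LDHA fell to 54.8% (log2 fold change -0.86 ± 0.053, adjusted p = 5.6e-07) and 63.9% (-0.64 ± 0.053, adjusted p = 6.2e-06) of the Scramble mean. LDHB, the subunit that favours the reverse reaction, fell by less (-0.15, adjusted p = 0.00367, and -0.29, adjusted p = 6.74e-05), the former call being lost with GC correction (-0.09, adjusted p = 0.0684) and with voom (-0.09, adjusted p = 0.0836). In FPKM as deposited, LDHA made up 63.7% ± 1.45 of lactate dehydrogenase FPKM in Scramble, 51.7% ± 0.751 after Si-KDM4C#1 and 57.9% ± 0.741 after Si-KDM4C#2. PDK1 fell from 8.19 ± 0.195 FPKM to 4.90 ± 0.547 and 4.14 ± 0.401 (-0.64 and -0.84), and PDK3 fell by 0.41 and 0.44 on the log2 scale. PDK4, outside the 46 genes, rose with both (0.90, adjusted p = 1.68e-06, and 0.58, adjusted p = 4.59e-05).

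The lactate exporters split. SLC16A1 (MCT1) was at 58.5, 58.1 and 59.9 FPKM in Scramble, 77.8, 85.3 and 83.0 after Si-KDM4C#1 and 48.5, 49.1 and 49.5 after Si-KDM4C#2, again with no overlap. It rose after Si-KDM4C#1 (0.47, adjusted p = 3.62e-06) and fell after Si-KDM4C#2 (-0.26, adjusted p = 0.000302). SLC16A3 (MCT4), the hypoxia-responsive exporter, had 0.15 (adjusted p = 0.056) and -0.11 (adjusted p = 0.151), neither called. The former was 0.22 (adjusted p = 0.00426) without Scramble replicate 1 and -0.10 (adjusted p = 0.0466) after GC correction, and the latter was then -0.43 (adjusted p = 1.75e-05).

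**Figure D4:**
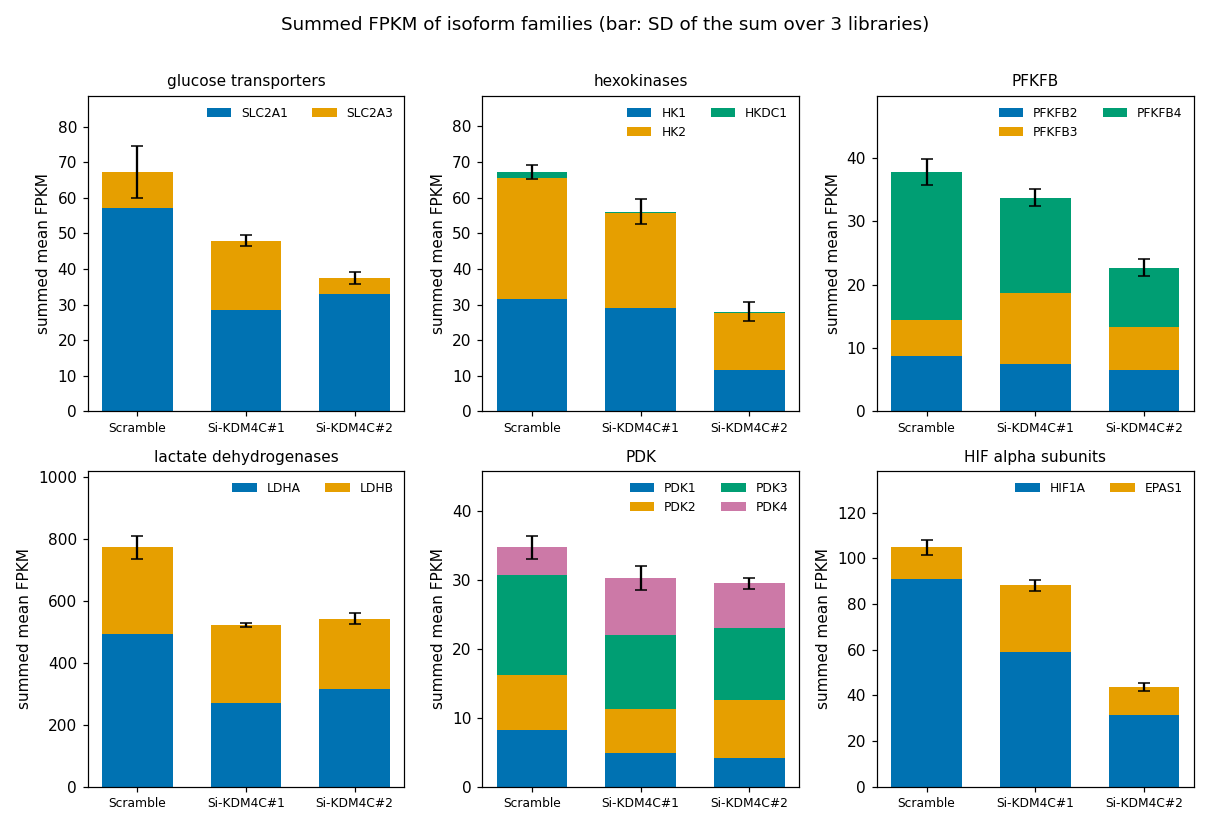
Summed mean FPKM (y axis, from 0) of 6 families in each group, stacked by isoform, with the SD of the sum over 3 libraries as a bar. The HIF alpha sum goes from 105 to 88.1 and 43.6 FPKM and the hexokinase sum from 67.2 to 56.1 and 28. EPAS1 and PFKFB3 take larger parts after both siRNAs than in Scramble, and SLC2A3 after Si-KDM4C#1 only.

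In glycogen synthesis, GBE1, the branching enzyme and a HIF target, was at 44.7, 45.5 and 45.7 FPKM in Scramble, 31, 32.1 and 28.6 after Si-KDM4C#1 and 17.4, 21.3 and 19.5 after Si-KDM4C#2. It fell in 2 steps without overlap, by 0.55 (adjusted p = 6.46e-05) and 1.19 ± 0.068 (adjusted p = 6.9e-07) on the log2 scale. PGM1, which links glucose 6-phosphate to glycogen, fell slightly with both (-0.18 and -0.20). GYS1, the glycogen synthase outside the normal liver, rose instead (0.61, adjusted p = 2.98e-05, and 0.28, adjusted p = 0.00592), but its value after Si-KDM4C#2 was 0.15 (adjusted p = 0.0668) after quantile normalization and 0.06 (adjusted p = 0.43) after GC correction.

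The HIF system itself changed. HIF1A was at 87.4, 92.5 and 92.9 FPKM in Scramble, 56.5, 61.3 and 59.6 after Si-KDM4C#1 and 30.1, 32.6 and 31.3 after Si-KDM4C#2. The groups formed 3 separate levels, and HIF1A fell to 65% (log2 fold change -0.61 ± 0.045, adjusted p = 1.74e-06) and 34.5% (-1.51 ± 0.045, adjusted p = 2.94e-08) of the Scramble mean. After GC correction the change after Si-KDM4C#1 was -0.32 (adjusted p = 7.88e-05). EPAS1, the alpha subunit also called HIF2A, was at 13.4, 14.7 and 13.4 FPKM in Scramble, 29.1, 29 and 29 after Si-KDM4C#1 and 11.5, 12.2 and 13.1 after Si-KDM4C#2. It rose just past 2-fold after Si-KDM4C#1 (1.02 ± 0.053, adjusted p = 2.19e-07). Over the alternatives other than leaving out a library, this value ran from 0.88 to 1.14, so not all were past 2-fold. EPAS1 was slightly lower after Si-KDM4C#2 (-0.16, adjusted p = 0.026), a call lost without Scramble replicate 2 (-0.12, adjusted p = 0.096), without Si-KDM4C#2 replicate 1 (-0.12, adjusted p = 0.0956) or without Si-KDM4C#2 replicate 2 (-0.16, adjusted p = 0.0606). HIF1A was 86.8% ± 0.560 of the alpha subunit FPKM in Scramble, 67.0% ± 0.991 after Si-KDM4C#1 and 71.9% ± 1.19 after Si-KDM4C#2.

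Of the oxygen sensors, EGLN3, a prolyl hydroxylase that is itself HIF-induced, was at 32.4, 28.6 and 32.2 FPKM in Scramble, 14.2, 12.8 and 12.8 after Si-KDM4C#1 and 12.7, 13.7 and 13.6 after Si-KDM4C#2. It fell to 42.6% and 42.9% of the Scramble mean (-1.17 ± 0.061, adjusted p = 2.17e-07, and -1.16 ± 0.061, adjusted p = 4.21e-07). EGLN1, the main prolyl hydroxylase, fell after Si-KDM4C#2 (-0.79, adjusted p = 5.54e-07), while its small decrease after Si-KDM4C#1 (-0.12, adjusted p = 0.0312) was 0.004 (adjusted p = 0.934) after GC correction and was not called without Scramble replicate 1 or 3 or Si-KDM4C#1 replicate 2 or 3 (adjusted p from 0.0544 to 0.103). VHL rose from 20.6 ± 0.367 FPKM to 35 ± 1.77 and 31.7 ± 0.990 (0.74, adjusted p = 4.77e-07, and 0.60, adjusted p = 3.15e-06).

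Of the 11 other hypoxia-inducible genes, 8 fell and 1 rose after Si-KDM4C#1, and 10 fell and 0 rose after Si-KDM4C#2. Among all tested genes 33.9% fell and 31.7% rose with the former siRNA, and 25.0% fell and 34.4% rose with the latter. BNIP3, which tags mitochondria for autophagy, was at 68.7, 68.6 and 75.3 FPKM in Scramble, 22.6, 22.5 and 20.8 after Si-KDM4C#1 and 27.9, 33.7 and 32.9 after Si-KDM4C#2. Its fall after Si-KDM4C#1, to 31% of the Scramble mean, was the largest of the 47 rows on the log2(FPKM + 1) scale (-1.64 ± 0.072, adjusted p = 7.31e-08), and after Si-KDM4C#2 it was -1.15 ± 0.072 (adjusted p = 1.14e-06). As a share of the Scramble mean, HKDC1 was lower still after Si-KDM4C#1, at 17.2%. BNIP3L, a relative of BNIP3 of like function, was at 47.8, 46.2 and 49.5 FPKM in Scramble, 23.4, 25.0 and 22.6 after Si-KDM4C#1 and 24.5, 28 and 27.1 after Si-KDM4C#2. It fell to 49.5% and 55.5% of the Scramble mean (-0.98, adjusted p = 3.71e-07, and -0.83, adjusted p = 1.92e-06). NDRG1, a stress-response gene widely used as a hypoxia marker, was at 199.7, 174 and 188 FPKM in Scramble, 113, 101 and 92 after Si-KDM4C#1 and 81.6, 87.6 and 84.7 after Si-KDM4C#2. All knockdown libraries were below Scramble (-0.87 ± 0.074, adjusted p = 4.72e-06, and -1.13 ± 0.074, adjusted p = 1.54e-06).

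KDM3A, a HIF-induced histone lysine demethylase, was at 9.10, 9.14 and 9.91 FPKM in Scramble, 6.01, 6.10 and 5.39 after Si-KDM4C#1 and 7.13, 7.24 and 7.49 after Si-KDM4C#2. It fell with both siRNAs (-0.60 ± 0.056, adjusted p = 8.3e-06, and -0.32 ± 0.056, adjusted p = 0.000741), the knockdown libraries all being below Scramble. ADM, the vasodilator peptide adrenomedullin, was at 11.4, 11.8 and 11.3 FPKM in Scramble, 17.3, 18.7 and 21.1 after Si-KDM4C#1 and 7.57, 6.29 and 8 after Si-KDM4C#2. It thus lay above Scramble after Si-KDM4C#1 (0.68, adjusted p = 8.78e-05) and below it after Si-KDM4C#2 (-0.60, adjusted p = 0.000263). P4HA1, a subunit of the collagen prolyl hydroxylase, was at 28.6, 30.7 and 32.4 FPKM in Scramble, 38, 33 and 31.5 after Si-KDM4C#1 and 15.8, 18 and 16.2 after Si-KDM4C#2. It fell after Si-KDM4C#2 (-0.84 ± 0.077, adjusted p = 1.29e-05) and overlapped Scramble after Si-KDM4C#1 (0.15, adjusted p = 0.106), where a GC correction gave 0.37 (adjusted p = 0.00142).

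VEGFA, the main angiogenic ligand, changed little (-0.14, adjusted p = 0.0292, and -0.26, adjusted p = 0.00137). The former call was lost with voom (-0.08, adjusted p = 0.127) and without Scramble replicate 1 or 3 or Si-KDM4C#1 replicate 1 or 3 (adjusted p from 0.0698 to 0.1), while GC correction gave -0.25 and -0.41. CA9, the tumour carbonic anhydrase and a classical hypoxia marker, was high in all libraries, at 87.2 ± 9.06 FPKM in Scramble, 70.5 ± 4.58 after Si-KDM4C#1 (-0.30, adjusted p = 0.00593) and 93.7 ± 3.42 after Si-KDM4C#2 (0.11, adjusted p = 0.242). MXI1, a MYC antagonist, fell after Si-KDM4C#2 (-0.62, adjusted p = 7.97e-06) and stood at -0.03 (adjusted p = 0.672) after Si-KDM4C#1. P4HA2 fell with both (-0.33 and -0.48), and ANKRD37 fell after Si-KDM4C#2 (-0.63). The call of ANKRD37 after Si-KDM4C#1 (-0.20, adjusted p = 0.0418) was lost under GC correction (-0.02, adjusted p = 0.814) and without Scramble replicate 1 or 3, Si-KDM4C#1 replicate 1 or 3, or Si-KDM4C#2 replicate 3 (adjusted p from 0.0559 to 0.145).

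HIF binds the core letters ACGTG or GCGTG. These were searched on both strands, overlapping matches counted separately, in the 250 bases before each RefSeq gene start (GRCh38.p14), where 39 of the 46 symbols had 1 or more windows. Of the 71 windows, 42 held a match (59.2%), beside 43.2% of all 35116 windows of that length, while the median GC content of the windows was 68.4% and 58.0%. Of the 39 symbols, 32 had a match in some window, and EGLN3, HKDC1, LDHB, P4HA2, PGAM1, PKM and SLC2A1 had none, which says nothing of these letters farther away. The share of symbols with a match was not computed over all genes, so this count has nothing to be read against. Symbols such as HK1 and PFKM have several windows, some overlapping, so windows are not independent and such symbols have more places for a match. The windows below, less the bases that GENCODE counts as exon, set HKDC1 and EGLN3, which fell with both siRNAs and have no match, beside BNIP3, which also fell with both, with 6 matches in 5 runs, and EPAS1, which rose after Si-KDM4C#1, with 1. Capitals mark the core letters on either strand. The HKDC1 stretch is chr10:69220082-69220302 (plus strand), BNIP3 chr10:131982014-131982173 (minus strand), EGLN3 chr14:33951082-33951324 (minus strand) and EPAS1 chr2:46297157-46297401 (plus strand).
HKDC1 upstream: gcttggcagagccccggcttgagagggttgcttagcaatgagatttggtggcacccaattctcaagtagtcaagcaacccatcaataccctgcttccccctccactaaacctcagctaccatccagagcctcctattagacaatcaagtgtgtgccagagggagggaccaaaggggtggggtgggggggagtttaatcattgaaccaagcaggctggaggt
BNIP3 upstream: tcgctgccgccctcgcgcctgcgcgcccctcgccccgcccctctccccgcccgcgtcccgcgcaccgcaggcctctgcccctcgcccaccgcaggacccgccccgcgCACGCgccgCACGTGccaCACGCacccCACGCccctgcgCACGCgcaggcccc
EGLN3 upstream: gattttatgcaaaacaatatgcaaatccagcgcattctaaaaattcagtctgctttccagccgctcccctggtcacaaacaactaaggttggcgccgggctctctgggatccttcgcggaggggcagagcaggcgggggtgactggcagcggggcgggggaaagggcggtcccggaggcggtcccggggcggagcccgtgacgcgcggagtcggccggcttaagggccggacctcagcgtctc
EPAS1 upstream: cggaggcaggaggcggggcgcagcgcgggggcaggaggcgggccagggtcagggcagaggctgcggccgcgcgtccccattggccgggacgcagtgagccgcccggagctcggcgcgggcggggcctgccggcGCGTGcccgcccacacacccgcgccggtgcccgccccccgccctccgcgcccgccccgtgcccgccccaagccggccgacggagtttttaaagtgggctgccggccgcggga

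Set against each other, the siRNAs differed in most of the rows. With Si-KDM4C#2 against Si-KDM4C#1, 29 of 47 rows were lower, 9 higher and 9 not called, beside 26.5% lower and 35.9% higher over all tested genes, and 4 were past 2-fold, all lower (2.49% lower and 4.41% higher over all tested genes). Among the 44 rows that a count-based fit (limma voom) on the recovered fragments could test, 32 were lower and 4 higher. SLC2A3 had the largest difference of the 47 rows (-1.85 ± 0.111, adjusted p = 6.68e-07), followed by HK1 (-1.28 ± 0.097, adjusted p = 2.88e-06), ADM (-1.27 ± 0.087, adjusted p = 1.48e-06) and EPAS1 (-1.18 ± 0.053, adjusted p = 1.26e-07). HIF1A (-0.89, adjusted p = 2.21e-07), P4HA1 (-0.99, adjusted p = 3.35e-06) and HK2 (-0.69, adjusted p = 2.31e-05) were also lower after Si-KDM4C#2. In the other direction, apart from an ALDOA row, the largest differences were at BNIP3 (0.50, adjusted p = 0.000214), CA9 (0.41, adjusted p = 0.00105) and KDM3A (0.28, adjusted p = 0.00162).

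A few genes were not told apart between the siRNAs. The difference was 0.01 for EGLN3 (95% interval -0.13 to 0.15, adjusted p = 0.877) and 0.14 for HKDC1 (-0.14 to 0.41, adjusted p = 0.362). Small differences at SLC2A1 (0.20, adjusted p = 0.0434), LDHA (0.22, adjusted p = 0.00521) and BNIP3L (0.16, adjusted p = 0.0358) were called, but with the fit on recovered fragments they were 0.08 (adjusted p = 0.277), 0.09 (adjusted p = 0.0886) and 0.04 (adjusted p = 0.623). That of GAPDH (-0.21, adjusted p = 0.00626) was -0.14 (adjusted p = 0.115) and that of NDRG1 (-0.26, adjusted p = 0.0124) was -0.17 (adjusted p = 0.0884) after quantile normalization. The call at SLC2A1 was lost without Scramble replicate 1, Si-KDM4C#1 replicate 1 or 3, or Si-KDM4C#2 replicate 1 or 3 (adjusted p from 0.0547 to 0.141). That at BNIP3L was lost without Si-KDM4C#1 replicate 1 or 3 or Si-KDM4C#2 replicate 2 or 3 (differences from 0.12 to 0.15).

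Other genes of the same pathways are counted list by list below. Each count can be read against all tested genes, of which 33.9% fell and 31.7% rose after Si-KDM4C#1 and 25.0% fell and 34.4% rose after Si-KDM4C#2, and in lists of 4 to 10 genes a share moves a long way with 1 gene. The 28 tested further hypoxia-inducible genes are a list that includes KDM4C and KDM4B. Of them, 14 fell and 7 rose after Si-KDM4C#1 and 20 fell and 5 rose after Si-KDM4C#2. These counts include the fall of KDM4C, the siRNA target, with both siRNAs and that of KDM4B after Si-KDM4C#2. PLOD2, a collagen lysyl hydroxylase, fell past 2-fold with both siRNAs (-1.82, adjusted p = 1.21e-08, and -1.12, adjusted p = 2.47e-07), and AK4, a mitochondrial adenylate kinase, did so too (-1.04 and -1.19). ANGPTL4, a lipase inhibitor, fell past 2-fold after Si-KDM4C#1 (-1.23), and LOX (-1.17), FUT11 (-1.21) and HILPDA (-1.23), a lipid droplet protein, after Si-KDM4C#2. STC2 (1.07) and CITED2 (1.38), a negative regulator of HIF, rose past 2-fold after Si-KDM4C#1. The values of Si-KDM4C#2 for them were -0.16 and 0.20.

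The HIF partner ARNT fell with both siRNAs (-0.84, adjusted p = 2.52e-07, and -0.38, adjusted p = 6.92e-05). In all, 5 of 8 tested other HIF pathway components fell and 2 rose after Si-KDM4C#1, and 3 fell and 2 rose after Si-KDM4C#2. Of the parts of the VHL ligase, ELOB rose (0.70 and 0.17) and CUL2 fell (-0.36 and -0.35) with both. Of 8 tested other isoforms of glycolytic genes, 4 fell and 2 rose after Si-KDM4C#1 and 4 fell and 1 rose after Si-KDM4C#2. Of these the lactate transporter SLC16A7 fell past 2-fold after Si-KDM4C#2 (-1.28), and ADPGK, which phosphorylates glucose with ADP, differed past 2-fold between the siRNAs (-1.19). LDHD, a D-lactate dehydrogenase, fell after Si-KDM4C#1 (-0.73).

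Of 7 tested pentose phosphate genes, 6 rose and 1 fell after Si-KDM4C#1, and 2 rose and 2 fell after Si-KDM4C#2. RPIA, the ribose 5-phosphate isomerase, rose past 2-fold after Si-KDM4C#1 (1.55, adjusted p = 1.18e-07) and rose after Si-KDM4C#2 (0.78), as did PGLS (0.33 and 0.61). Of 16 citric acid cycle genes, 10 rose and 4 fell after Si-KDM4C#1, and 4 rose and 8 fell after Si-KDM4C#2. CS, the citrate synthase, rose with both (0.68 and 0.73), while OGDH (-0.36 and -0.88) and SUCLG1 (-0.50 and -0.80) fell with both. Of 9 genes of the pyruvate dehydrogenase complex and its phosphatases, 5 fell and 1 rose after Si-KDM4C#1 and 4 fell and 2 rose after Si-KDM4C#2. PDHX, a structural subunit, fell with both (-0.78 and -0.24), DLAT after Si-KDM4C#1 (-0.47) the phosphatase PDP2 after Si-KDM4C#2 (-0.72) and the pyruvate carrier MPC2 with both (-0.29 and -0.24).

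In gluconeogenesis, 1 of 4 tested genes rose and 2 fell after Si-KDM4C#1, and 2 rose and 1 fell after Si-KDM4C#2. PCK2, the mitochondrial phosphoenolpyruvate carboxykinase, rose past 2-fold with both (2.07, adjusted p = 1.75e-08, and 1.93, adjusted p = 5.25e-08), and SLC37A4, the glucose 6-phosphate transporter, differed past 2-fold between the siRNAs (1.05). Of 10 other tested glycogen genes, 6 fell and 2 rose after Si-KDM4C#1 and 8 fell and 0 rose after Si-KDM4C#2. UGP2, which makes UDP-glucose, fell with both (-1.13, adjusted p = 2.17e-08, and -0.69, adjusted p = 6.74e-07), as did PHKA1, a subunit of phosphorylase kinase (-0.37 and -0.63). Of 7 genes of glucose sensing, a list that includes MYC, 4 rose and 1 fell after Si-KDM4C#1 and 2 rose and 4 fell after Si-KDM4C#2. MYC rose past 2-fold after Si-KDM4C#1 (1.52, adjusted p = 1.88e-08) and was at 0.55 after Si-KDM4C#2. TXNIP, an inhibitor of glucose uptake, fell past 2-fold after Si-KDM4C#2 (-1.03, adjusted p = 4.48e-07), and TIGAR differed past 2-fold between the siRNAs (-1.34).

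Between the siRNAs, where 26.5% of all tested genes were lower and 35.9% higher after Si-KDM4C#2, 10 of 16 citric acid cycle genes were lower and 2 higher, and 17 of 28 further hypoxia-inducible genes were lower and 5 higher. In the pentose phosphate pathway 5 of 7 were lower and 2 higher, in glucose sensing 5 of 7 and 0, and among the other glycogen genes 4 of 10 and 1. Of the other isoforms 3 of 8 were lower and 3 higher, of the gluconeogenesis genes 0 of 4 and 1, of the pyruvate dehydrogenase complex 3 of 9 and 4, and of the other HIF pathway components 2 of 8 and 4. The values were -0.93 for PGD and -0.88 for TALDO1, both of the pentose phosphate pathway, -0.87 for PYGB and -0.68 for PYGL, the glycogen phosphorylases of brain and liver, and -0.80 for IDH3B and -0.59 for SDHA of the citric acid cycle.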

How the data were processed

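RNA of cells labelled Huh7, 48 h after transfection, was sequenced in 9 libraries, 3 for each of Scramble, Si-KDM4C#1 and Si-KDM4C#2. Groups were taken from the sample labels. Per library there is 1 deposited table, in which the authors give each gene in FPKM, normalized for exon length and library size. The submitters' processing notes name GRCh38, FastQC 0.11.5, HISAT2 2.1.0, StringTie 1.3.3b, featureCounts and DESeq 1.28.0, and the annotation is not given in the sources used here. The kit was NEB Next Ultra RNA.

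Genes with a group mean of 1 FPKM or more were tested on log2(FPKM + 1) with limma 3.58.1 (trend, R 4.3.3), all 9 libraries in 1 fit, with Benjamini-Hochberg adjustment over all genes tested, two-sided. The pseudocount of 1 shrinks fold changes of low genes. Every adjusted p in the text is from limma. Tables and figures were made with Python 3.11.15. The scripts were tested on simulated data. With exon lengths of GENCODE release 29, a gene's values were whole multiples of 1 fragment (within 0.05 fragment) for 97.66% of genes, which gave 14597503 to 18058557 fragments per library. These recovered fragments entered limma voom as an alternative only. A count of 0 allows up to 3 fragments, counting error alone.

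The members and lists were chosen with earlier results of these data known. Given library by library were HKDC1, GAPDH, LDHA, HIF1A, KDM3A, members called past 2-fold in any comparison, and in each comparison the 6 called members with the largest change; SLC16A1 was added after its values were seen. Of other lists, genes past 2-fold were named or, without any, the 2 with the largest change. Alternatives were no filter, a stricter filter, quantile normalization, a pseudocount of 0.1, FDR 0.01, the 6 libraries of a comparison alone, a GC correction (lowess of each library on exonic GC content, span 0.3), a replicate block and leaving out each library. Some genes of the other lists are not reported here.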

Additional observations from a re-analysis of the deposited data

Results flagged for a closer look

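In 5 members the siRNAs moved the level to opposite sides of Scramble, each change being called, and the difference between them was itself called by limma. SLC2A3, the GLUT3 transporter, rose after Si-KDM4C#1 and fell after Si-KDM4C#2, with a log2 difference (Si-KDM4C#2 minus Si-KDM4C#1) of -1.85. For ADM the difference was -1.275, for EPAS1 -1.179 and for the lactate transporter SLC16A1 -0.729. The ALDOA row ENSG00000149925 went the other way, with 0.692, and it shares 53.5% of its exon bases with other genes. Its rise after Si-KDM4C#2 was not called after GC correction (0.20, adjusted p = 0.0916). The siRNA comparisons share their Scramble libraries, and the decrease of EPAS1 after Si-KDM4C#2 was not called when Scramble replicate 2 (adjusted p = 0.096), Si-KDM4C#2 replicate 1 (adjusted p = 0.0956) or Si-KDM4C#2 replicate 2 (adjusted p = 0.0606) was left out. KDM4B was lowered after Si-KDM4C#2, and its part in these differences was not tested. Groups of 3 libraries are too small for a test of single outlying libraries.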

How the results depend on the processing

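Alternatives other than leaving out a library gave 1530 values. Of these, 1391 kept their side of the threshold, 87 lost the call, 48 gained one and 4 reversed. A change of sign counted as reversed only where the main or the alternative value was called, and otherwise as kept. CA9 after Si-KDM4C#2, for instance, ranged from -0.144 to 0.109 without a call. The number of members higher after Si-KDM4C#2 against Scramble was 2 in place of 6 under the GC correction, and 2 with GC correction and replicate block. The number of members higher after Si-KDM4C#2 against Si-KDM4C#1 was 4 with voom on recovered fragments and 5 with voom and replicate block, in place of 9, with 44 of 47 rows testable. Reversed were EGLN1 for Si-KDM4C#1 against Scramble (0.004 under GC correction with and without replicate block), LDHB between the siRNAs (0.031 under quantile normalization) and SLC16A3 for Si-KDM4C#1 against Scramble (-0.103 under GC correction), and the cause was not tested. Quantile normalization also gave HK1 after Si-KDM4C#1 a call (-0.292, adjusted p = 0.0301), HK2 a larger fall (-0.513), and KDM3A between the siRNAs a smaller difference (0.17).

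The labels share replicate numbers across groups, but same-numbered libraries did not visibly deviate together (mean r = 0.0162 over 9 pairs, from -0.0461 to 0.0546). For libraries of different number the mean r was -0.00808 over 18 pairs. No pairing by number was thus seen, and whether equal numbers mark a shared culture or batch is not stated. The replicate block gave 11 members higher and 29 lower after Si-KDM4C#1, 7 and 36 after Si-KDM4C#2, and 8 and 26 between the siRNAs.

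Leaving out 1 library gave 9 to 11 members higher and 27 to 30 lower after Si-KDM4C#1, with 3 to 6 past 2-fold. After Si-KDM4C#2 it gave 5 to 7 higher, 35 to 37 lower and 9 to 11 past 2-fold, and between the siRNAs 7 to 9, 24 to 30 and 4 to 5. Of 1269 such values, 57 lost the call, 10 gained one and 0 reversed by the same rule. Depth limits HKDC1 most, with 63 and 88 fragments summed over the knockdown groups.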
